A study of Mus musculus with 16 samples.

Results

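The secreted factors of thermogenic fat described here are 9 genes, *Fgf21*, *Metrnl*, *Vegfa*, *Vegfb*, *Nrg4*, *Gdf15*, *Slit2*, *Fgf9* and *Pltp*, chosen by symbol from the 54347 genes listed. Each symbol matched 1 gene, and 7 of the 9 passed the filter on low counts that left 13150 genes for testing. *Fgf9* and *Slit2* did not pass it and are given as counts. The levels come from RNA-seq of polyadenylated RNA of wt1-SAM cells, which are mouse brown preadipocytes kept as an immortalized line. They permanently carry CRISPRa SAM, a nuclease-dead Cas9 whose recruited activators raise transcription at the site named by a single guide RNA (sgRNA). All groups therefore shared the SAM proteins, differentiation with rosiglitazone, T3, dexamethasone, insulin, indomethacin and IBMX, and reverse transfection on day 4 with 250 ng of plasmid. In empty vector control cells (4 libraries) the plasmid encoded no targeting guide and no agonist was given. Stimulated empty vector cells (4 libraries) received in addition 1 µM isoproterenol, a non-selective β-adrenergic agonist, for the last 24 h before harvest on day 7. The sgRNA control cells (4 libraries) carried guides against the long noncoding RNA gene *Gm15551* and were not stimulated. Stimulated sgRNA cells (4 libraries) had both the guides and isoproterenol. The replicate numbers 3, 4, 5 and 6 occurred once in each group and define 4 pairs of control and stimulated libraries per plasmid, 8 in all. The labels do not say that replicates were separate cultures, so p-values measure the spread between these libraries.

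Brown adipocytes turn chemical energy into heat when noradrenaline acts on their β-adrenergic receptors, which raise cyclic AMP and activate protein kinase A. The same signal changes which proteins the cells release, and these secreted proteins, often called batokines, act on vessels, nerves, immune cells and adipocytes nearby or travel to liver and brain. FGF21 and GDF15 are such endocrine signals, VEGFA and VEGFB act on vessels, NRG4 is released toward nerve and liver, and METRNL, SLIT2 and PLTP have been linked to energy use of adipose tissue.

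The libraries held between 9053521 and 16546187 counts, and 1 gene annotated as ribosomal RNA took 11.7% to 51.8% of them (median 21.5%), which left 5900607 to 12959314 counts for all other genes. Levels are given in CPM, counts set to a common total per library, with library sizes scaled by TMM, a factor that brings most genes to equal levels between libraries. The targeted gene *Gm15551* was higher in sgRNA than in empty vector cells in 8 of 8 pairs, by 2.37 on the log2 scale (adjusted p = 0.0989, or 0.00055 once replicate number was a block). The estimate was 1.60 in control and 3.13 in stimulated cells, where the empty vector group held 8 counts in all, with 2 libraries at 0. *Gm15551* had 304 counts in the 16 libraries and was lower after isoproterenol in 8 of 8 pairs (−1.69, adjusted p = 0.0214 by edgeR). *Ucp1*, the uncoupling protein of thermogenic fat, was higher after isoproterenol in 8 of 8 pairs, by 4.03 in log2 terms (SE 0.37, adjusted p = 7.36e-06), but its group means reached only 6.42 and 9.35 CPM. All 8 adipocyte markers were tested, with summed levels of 11200 CPM to 25018 CPM over the libraries. Of 8 brown adipocyte markers 7 were tested, with summed levels of 196 CPM to 571 CPM, most of it from *Elovl3* (group means of 236 CPM to 316 CPM), while *Cox8b*, *Prdm16* and *Cox7a1* were near 1 CPM and *Dio2* had 1 count in all. After isoproterenol 2 of these 7 were called higher, *Ucp1* and *Ppargc1a*, and with the block also *Cidea*. Of 7 endothelial and 7 macrophage markers 1 each was tested, *Pecam1* and *Cd68*, and the defining markers *Emcn*, *Adgre1* and *Ptprc* had 0, 1 and 6 counts in the 16 libraries together. *Cd68*, a lysosomal protein gene, was called higher after isoproterenol (0.91 on the log2 scale, adjusted p = 0.00518), and the summed macrophage markers lay between 6.44 and 14.4 CPM in control and between 13.9 and 22.7 CPM in stimulated libraries. Of 6 smooth muscle or pericyte markers 4 were tested (summed 4.19 CPM to 39.1 CPM), none was called without the block and 3 were called lower with it (median −0.69 without the block). Of 8 preadipocyte or fibroblast markers 4 were tested (summed 17.1 CPM to 126 CPM), none was called without the block and *Ly6a* was called higher with it (0.99 without the block). For comparison, 2.65% of all genes tested were called after isoproterenol without the block and 5.7% with it. The part of these markers in the levels of the secreted factors was not tested.

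Isoproterenol raised 2 of the 7 tested factors, *Fgf21* by 1.59-fold and *Metrnl* by 1.86-fold, when its effect was averaged over both plasmids. No factor fell by the same standard, *Vegfb* came closest with a log2 fold change of −0.33, and none of the 7 was called for the sgRNAs against *Gm15551*. Genes were called changed where edgeR's quasi-likelihood test gave an adjusted p under 0.05, by the Benjamini-Hochberg method over the 13150 genes, and the absolute log2 fold change was over 0.5. Of all genes tested, 2.65% were called for the averaged isoproterenol effect and 1.33% were called higher. Of the 7 factors, 5 had an estimate above 0 and 2 below, with a median of 0.11 against 0.00 over all genes. Once replicate number was a block in the fit the same 2 factors were called, among 5.7% of all genes called and 3.09% called higher. In bulk RNA, fewer cells of a type and less RNA per cell cannot be told apart.

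**Figure D1:**
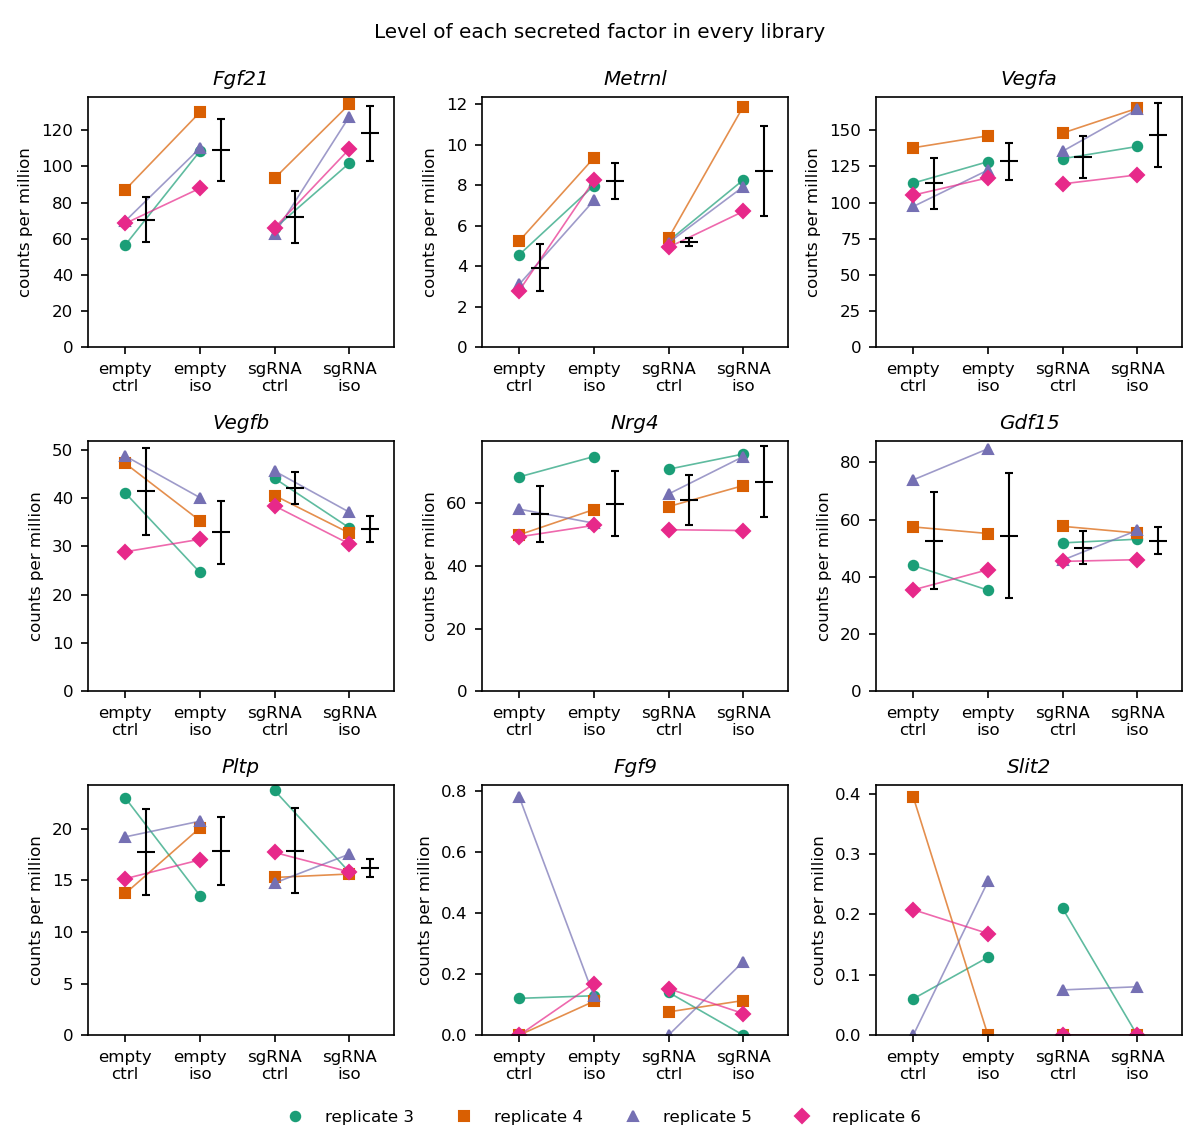
Level of each of the 9 factors in every library, in CPM on a linear axis from 0 with a range of its own for each gene, by plasmid and treatment (ctrl, control; iso, isoproterenol). Coloured symbols are replicate numbers, lines join control and stimulated libraries of the same plasmid and number, and black bars give mean ± SD (n = 4), drawn only for the 7 tested factors. All 8 lines of *Fgf21* and of *Metrnl* rise, and *Fgf9* and *Slit2* stay under 0.8 CPM.

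FGF21 is an endocrine fibroblast growth factor that acts through FGF receptors together with the co-receptor β-Klotho and lowers glucose and lipids in rodents. *Fgf21* lies on the minus strand at chr7:45613886-45615490 of GRCm38, has 3 exons and shares no exon bases with another gene. With the empty vector, replicates 3, 4, 5 and 6 had 56.6, 87.2, 69.9 and 68.5 CPM without isoproterenol and 108, 130, 110 and 88.0 CPM with it. With the sgRNAs they had 65.8, 93.5, 62.9 and 66.1 CPM without it and 102, 134, 128 and 110 CPM with it. Within each plasmid every stimulated library lay above every control library, although the margin in empty vector cells was narrow (87.2 against 88.0 CPM), and replicate 4 was the highest in all 4 groups. Groups stood apart in this way in both plasmids, in the same direction, for 1.95% of all genes tested.

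The group means of *Fgf21* were 70.5 ± 12.6 CPM in empty vector control, 109 ± 17.2 in stimulated empty vector, 72.1 ± 14.4 in sgRNA control and 118 ± 15.2 in stimulated sgRNA cells (SD, n = 4 each). The averaged isoproterenol effect was 0.67 on the log2 scale (SE 0.11, 95% interval 0.43 to 0.91, adjusted p = 0.00225). All 8 pairs were higher after isoproterenol, by 0.36 to 1.02 on the log2 scale. For comparison, all 8 pairs moved in 1 direction for 15.8% of genes. The call was made in 32 of 32 alternative settings.

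Within a single plasmid the *Fgf21* estimate was near the threshold of the test when no replicate block was fitted. With the block it was called in both plasmids, also when any 1 replicate number was left out. In empty vector cells it was 0.63 on the log2 scale (SE 0.16, adjusted p = 0.0869, or 0.000212 under the replicate block). In sgRNA cells it was 0.72 (SE 0.16, adjusted p = 0.0499, or 5.66e-05 under the block). The call in sgRNA cells was made in 14 of 32 alternatives. Without the block it remained after leaving out replicate 4, or the control library of replicate 4 of either plasmid, or the empty vector control library of replicate 3, and was lost without any other library or number (adjusted p up to 0.396). The difference between the plasmids' responses was 0.09 (SE 0.22, 95% interval −0.39 to 0.56, adjusted p = 1.00).

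METRNL, meteorin-like, is a secreted protein of muscle and fat that is related to the neurotrophic factor meteorin and acts on immune cells of adipose tissue. *Metrnl* lies on the plus strand at chr11:121701544-121716306 and has 5 exon blocks. It was the least abundant of the 7 tested factors, with 24 to 210 counts per library. With the empty vector, the values of replicates 3, 4, 5 and 6 were 4.57, 5.26, 3.12 and 2.80 CPM in unstimulated and 7.99, 9.35, 7.25 and 8.24 CPM in stimulated cells. With the sgRNAs they were 5.25, 5.40, 5.16 and 4.94 CPM in unstimulated and 8.26, 11.9, 7.93 and 6.71 CPM in stimulated cells. The 8 stimulated libraries, from 6.71 CPM up, all lay above the 8 control libraries, which reached 5.40 CPM at most. Control and stimulated groups stood apart within both plasmids, in the same direction, for 1.95% of all genes tested.

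The group means of *Metrnl* were 3.94 ± 1.17, 8.21 ± 0.871, 5.19 ± 0.191 and 8.70 ± 2.23 CPM in empty vector control, stimulated empty vector, sgRNA control and stimulated sgRNA cells (SD, n = 4 each). The averaged isoproterenol effect was 0.89 on the log2 scale (SE 0.15, 95% interval 0.59 to 1.20, adjusted p = 0.00186). All 8 pairs were higher, by 0.43 to 1.50 on the log2 scale, and the call was made in 32 of 32 alternatives.

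In empty vector cells *Metrnl* rose by 1.04 in log2 terms (SE 0.21, adjusted p = 0.0234), and 0.829% of all genes were called there. That call was lost when any 1 replicate number was left out, and when the empty vector control library of replicate 3 or 5 or the stimulated empty vector library of replicate 3, 4 or 6 was left out alone (adjusted p up to 0.255). In sgRNA cells the estimate was 0.75 (SE 0.20, adjusted p = 0.141, or 0.00454 under the block), and 0.7% of all genes were called without the block. The difference between the plasmids' responses was −0.29 (SE 0.29, 95% interval −0.91 to 0.32, adjusted p = 1.00). Of the 7 factors, 1 was called in each plasmid alone without the block, *Metrnl* in empty vector and *Fgf21* in sgRNA cells. With the block both genes were called in both plasmids (*Metrnl* at 0.000347 in empty vector cells), among 4.47% and 3.9% of all genes. The blocked call of *Metrnl* in sgRNA cells was lost when number 4 was left out.

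Since *Fgf21* and *Metrnl* were the 2 factors called higher, the 250 bases before their RefSeq start sites (GRCm38.p6) are shown, 5′ to 3′ on the gene's strand. On both strands 5 motifs were searched, the cyclic AMP response element TGACGTCA, its 5-base core TGACG, the element TGATGCAA read by C/EBP and ATF proteins, the hypoxia core ACGTG and the E-box CACGTG, and the bases of matches are in capitals. They overlap by construction, since CACGTG holds ACGTG on both strands and TGACGTCA holds TGACG on both strands.
*Fgf21*, chr7:45615491-45615740, minus strand: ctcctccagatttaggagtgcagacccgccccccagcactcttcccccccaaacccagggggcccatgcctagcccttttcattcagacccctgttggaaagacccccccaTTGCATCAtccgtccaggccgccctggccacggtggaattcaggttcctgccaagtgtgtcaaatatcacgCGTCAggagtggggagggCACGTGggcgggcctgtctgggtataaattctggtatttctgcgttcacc
*Metrnl*, chr11:121702177-121702426, plus strand: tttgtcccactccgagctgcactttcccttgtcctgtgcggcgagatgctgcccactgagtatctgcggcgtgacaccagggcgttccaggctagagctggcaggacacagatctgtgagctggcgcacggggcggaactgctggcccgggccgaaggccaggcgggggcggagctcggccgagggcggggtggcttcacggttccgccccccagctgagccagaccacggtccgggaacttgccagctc

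The *Fgf21* window held TGATGCAA on the opposite strand, 139 to 132 bases before the start, TGACG on the opposite strand at 68 to 64, and CACGTG at 50 to 45. Among 32851 promoter windows of the same length, TGATGCAA occurred in 0.791%, TGACG in 17.8%, CACGTG in 6.02% and ACGTG in 16.6%. The full element TGACGTCA occurred in 1.55% of the windows and in none of the 11 windows of the 9 factors. The *Metrnl* window held none of the 5 motifs, and its start site lies inside the gene as the GENCODE annotation draws it. Among the other factors, CACGTG was found in the window of the second *Gdf15* start site, TGACG and ACGTG in those of *Fgf9* and of the second *Vegfa* start site, and ACGTG in that of *Nrg4*. Like that of *Metrnl*, these windows with matches lie inside their genes in the GENCODE annotation. The windows of *Vegfb*, *Pltp*, *Slit2* and the first start sites of *Vegfa* and *Gdf15* had no match.

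**Figure D2:**
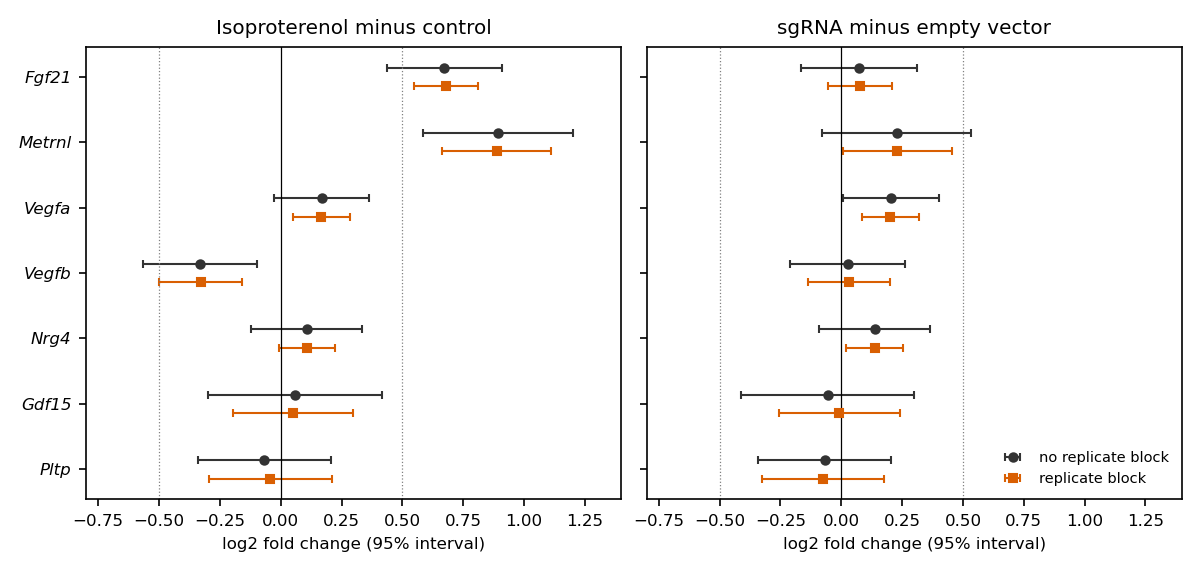
Log2 fold change of each tested factor with its 95% interval, for isoproterenol minus control averaged over plasmids (left) and for sgRNA minus empty vector averaged over treatments (right), without (circles) and with (squares) the replicate number as a block. Dotted lines mark the bound of 0.5 in either direction, past which only *Fgf21* (0.67) and *Metrnl* (0.89) lie, both for isoproterenol.

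The vascular growth factors *Vegfa* and *Vegfb* had estimates in opposite directions after isoproterenol. VEGFA is the main signal for growth of new capillaries, through the receptor encoded by *Kdr*, while VEGFB binds the receptor encoded by *Flt1*. *Vegfa* lies at chr17:46016993-46032369 and *Vegfb* at chr19:6982473-6987651, both on the minus strand. The level of *Vegfa* in replicates 3, 4, 5 and 6 was 113, 138, 97.3 and 105 CPM in empty vector control and 128, 146, 122 and 117 CPM in stimulated empty vector cells. The sgRNA control cells had 130, 148, 135 and 113 CPM, and the stimulated sgRNA cells 139, 165, 164 and 119 CPM. The groups overlapped, but each stimulated library exceeded the control library of its own number, by 0.08 to 0.33 on the log2 scale, so that 8 of 8 pairs were higher. The averaged log2 fold change of 0.17 (SE 0.09, 95% interval −0.03 to 0.36) had an adjusted p of 0.376, or 0.0406 with the block, and lay inside the bound of 0.5 either way.

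*Vegfb* was at 41.0, 47.2, 48.7 and 28.9 CPM in empty vector control and at 24.6, 35.3, 40.1 and 31.5 CPM in stimulated empty vector cells. The sgRNA control cells had 44.1, 40.5, 45.6 and 38.4 CPM, and the stimulated sgRNA cells 33.8, 32.8, 37.1 and 30.5 CPM. It was lower in 7 of 8 pairs, and the exception was replicate 6 of empty vector cells. In sgRNA cells alone the stimulated libraries all lay under the control libraries, while in empty vector cells the groups overlapped. How many of all genes stood apart in a single plasmid was not counted. The averaged log2 fold change of −0.33 (SE 0.11, 95% interval −0.57 to −0.10) had an adjusted p of 0.111, or 0.00836 with the block, inside the bound. With the block 4 of the 7 factors, these 2 and the 2 called, had an adjusted p under 0.05 whatever the size of the change, as did 21.3% of all genes. With the block and any 1 replicate number left out, *Vegfa* had an adjusted p of 0.0837 to 0.106, and *Vegfb* had 0.0531 without number 4.

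Because both genes were read in the same library, the ratio of their counts needs no scaling between libraries. The *Vegfa* to *Vegfb* count ratio in replicates 3, 4, 5 and 6 was 2.76, 2.92, 2.00 and 3.64 in empty vector control and 5.21, 4.14, 3.05 and 3.72 in stimulated empty vector cells. It was 2.96, 3.65, 2.97 and 2.94 in sgRNA control and 4.10, 5.04, 4.43 and 3.90 in stimulated sgRNA cells. The ratio was higher after isoproterenol in 8 of 8 pairs, and its group means were 2.83 ± 0.674, 4.03 ± 0.904, 3.13 ± 0.348 and 4.37 ± 0.498 (SD, n = 4 each, in the same order of groups). It was computed after the values of both genes had been seen and was not tested.

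**Figure D3:**
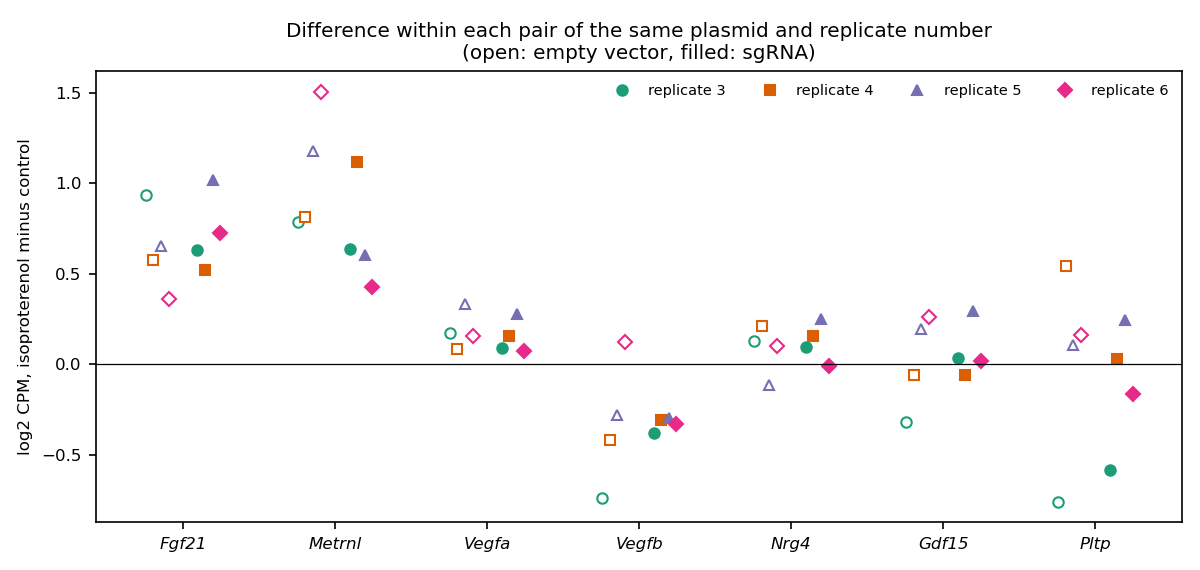
Log2 CPM of the stimulated library minus that of the control library with the same plasmid and replicate number, for the 7 tested factors, with open symbols for empty vector and filled symbols for sgRNA cells. All 8 points of *Fgf21*, *Metrnl* and *Vegfa* lie above 0, and 7 of 8 of *Vegfb* lie below.

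*Nrg4*, *Gdf15* and *Pltp* were not called for either factor of the design. NRG4 is a ligand of the ErbB4 receptor that brown adipocytes release. *Nrg4* lies on the minus strand at chr9:55220222-55326844. Its level was 68.5, 50.0, 58.2 and 49.3 CPM in empty vector control, 75.0, 58.1, 53.7 and 53.0 in stimulated empty vector, 70.9, 59.0, 63.0 and 51.6 in sgRNA control and 75.8, 65.7, 75.0 and 51.3 CPM in stimulated sgRNA libraries (replicates 3, 4, 5 and 6). The highest library of each group was that of replicate 3, the groups overlapped, and the isoproterenol estimate was 0.11 (SE 0.11, 95% interval −0.12 to 0.33, adjusted p = 0.681), with 6 of 8 pairs higher. *Nrg4* shares exon bases with *Fbxo22* and *Gm15625* on the other strand, and whether reads were counted by strand was not given in the sources used here.

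GDF15, a distant member of the TGF-β family, is a stress signal that lowers food intake through the hindbrain receptor GFRAL. *Gdf15* (chr8:70629393-70632456, minus strand) was at 44.0, 57.4, 73.9 and 35.4 CPM in empty vector control, 35.3, 55.1, 84.7 and 42.5 in stimulated empty vector, 51.8, 57.6, 45.8 and 45.4 in sgRNA control and 53.1, 55.3, 56.2 and 46.0 CPM in stimulated sgRNA libraries. The 2 highest values were those of replicate 5 of empty vector cells, whose libraries also had the highest ribosomal RNA shares, 47.3% and 51.8%. The part of that share in the *Gdf15* level was not tested. The isoproterenol estimate was 0.06 (SE 0.17, 95% interval −0.30 to 0.42, adjusted p = 0.906).

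PLTP transfers phospholipids between lipoproteins and is a target gene of the liver X receptors (LXR). *Pltp* (chr2:164839518-164857711, minus strand) ranged from 13.5 to 23.7 CPM over the 16 libraries, and its groups overlapped throughout. The isoproterenol estimate was −0.07 (SE 0.13, 95% interval −0.34 to 0.21, adjusted p = 0.851). *Pltp* shares exon bases with *Ctsa* on the other strand, so its counts carry the same doubt as those of *Nrg4*.

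*Fgf9* and *Slit2* were at the limit of detection. FGF9 is a paracrine growth factor of mesenchymal tissues, and SLIT2 is a guidance protein for axons and vessels that binds ROBO receptors. *Fgf9* (chr14:58070547-58112720) had 25 counts in the 16 libraries together, at most 6 in any library and 0 in 4 of them. *Slit2* (chr5:47983138-48307733) had 19 counts, at most 6 in any library and 0 in 7 of them. A count of 0 allows up to 3 counts, which corresponds to 0.166 to 0.390 CPM by library and covers counting error only. Differences between groups were not detectable for these genes at this depth.

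Compared per kilobase of annotated exons, *Fgf21* was the most abundant factor, with a median of 95.4 CPM per kb over the 16 libraries (range 59.5 to 141), and its range did not touch that of any other factor. *Vegfa* followed with a median of 30.2 (22.7 to 38.5), *Gdf15* with 28.3 (19.1 to 45.8) and *Vegfb* with 23.5 CPM per kb (15.3 to 30.3), and the ranges of these neighbours overlapped. *Nrg4* had 9.64 (8.12 to 12.5), *Pltp* 6.40 (5.28 to 9.26) and *Metrnl* 3.82 CPM per kb (1.77 to 7.49). The step from *Vegfb* to *Nrg4* exceeded the spread between libraries, those from *Nrg4* to *Pltp* and from *Pltp* to *Metrnl* did not. *Fgf9* and *Slit2* had medians of 0.0251 and 0.00265 CPM per kb. The kilobases are all annotated exon bases of a gene and not those of the isoform used, which weighs most on genes with many exon blocks such as *Nrg4* with 20.

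The factors also differed in what their variance followed. The treatment held 72.5% of the variance of log2 CPM of *Fgf21* and 70.3% of that of *Metrnl* over the 16 libraries. For *Vegfb* the treatment held 37.7% and the replicate number 32.4%, and for *Vegfa* the replicate number held 44.1%, the plasmid 23.2% and the treatment 16.1%. The replicate number held the largest share for *Nrg4* (69.7%) and *Gdf15* (53.0%), while for *Pltp* 82.9% was shared with neither number, plasmid nor treatment. Over all libraries the highest level exceeded the lowest by 4.24-fold for *Metrnl* and by 1.54-fold to 2.40-fold for the other 6.

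**Figure D4:**
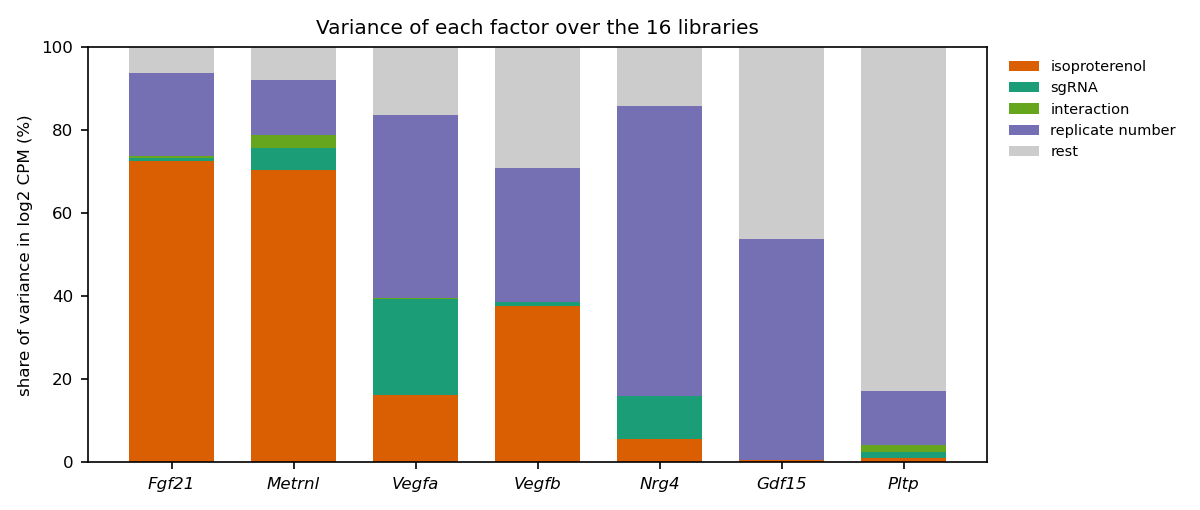
Share of the variance of log2 CPM over the 16 libraries, in percent, that goes with isoproterenol, sgRNA, their interaction, the replicate number and the rest, for the 7 tested factors. Isoproterenol takes 72.5% for *Fgf21* and 70.3% for *Metrnl*, and the replicate number 69.7% for *Nrg4*.

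Activation of *Gm15551* was compared with the empty vector over both treatments. None of the 7 factors was called, in a comparison in which 0% of all genes were called by edgeR (437 genes had an unadjusted p under 0.05, and DESeq2 called 10). With the replicate block in edgeR 0.266% of all genes and again no factor were called, and the lowest adjusted p of a factor was 0.147. Over the 32 alternative settings the adjusted p of *Vegfa* went as low as 0.033. Its estimates there, 0.03 to 0.27, stayed inside the bound of 0.5, so it was called in none. The estimates were 0.07 (SE 0.11) for *Fgf21*, 0.23 (SE 0.14) for *Metrnl*, 0.20 (SE 0.09) for *Vegfa*, 0.03 for *Vegfb*, 0.14 (SE 0.11) for *Nrg4*, −0.06 (SE 0.17) for *Gdf15* and −0.07 for *Pltp*, on the log2 scale. Without the block *Vegfa* was the only factor with an unadjusted p under 0.05 by edgeR (95% interval 0.01 to 0.40, adjusted p = 0.9997). With the block the unadjusted p was under 0.05 for 3 of 7 factors, *Vegfa* (0.00233), *Nrg4* (0.0235) and *Metrnl* (0.0451). In that fit 1506 of the 13150 genes tested also had an unadjusted p under 0.05. *Vegfa* was higher in sgRNA than in empty vector cells in 8 of 8 pairs, by 0.02 to 0.48 on the log2 scale, and 8 of 8 sgRNA pairs moved in 1 direction for 3.08% of all genes. The empty vector libraries also had higher ribosomal RNA shares in every pair, and with that share as a covariate the *Vegfa* estimate was 0.03. The parts of plasmid and ribosomal RNA share in the *Vegfa* level cannot be told apart here. All 7 tested brown adipocyte markers (median 0.21) and 10 of 14 hypoxia genes (median 0.17) also had sgRNA estimates above 0, none of them called without the block. So had 13 of 14 genes of the integrated stress response (median 0.06) and 7 of 8 adipocyte markers (median 0.08), none called either way. Of 9 tested other secreted factors of thermogenic fat, 3 had estimates above 0 and 6 below (median −0.09). With the block the brown adipocyte marker *Cidea* was called higher, the preadipocyte marker *Ly6a* was called lower and no hypoxia gene was called. Of the 9 tested other secreted factors, 1 was called lower with the block. The part of these lists in the *Vegfa* level was not tested. *Metrnl* was higher in 7 of 8 pairs, *Nrg4* in 7 and *Fgf21* in 5.

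The interaction asks whether isoproterenol acted differently in sgRNA cells. No factor and 0% of all genes were called for it by edgeR without the block, with 52 genes at an unadjusted p under 0.05 and 0 called by DESeq2. With the block the share was also 0%, and DESeq2 with the block called 3 genes, none of them a factor.

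The receptors through which these factors act were examined next. Of 19 receptor genes 8 were tested, 1 was called lower after isoproterenol and none higher, against 2.65% of all genes called. With the block 2 were called lower and none higher, against 5.7% of all genes called. *Fgfr1*, the main FGF21 receptor of adipocytes, fell from 80.5 to 57.6 CPM in empty vector and from 79.7 to 53.7 CPM in sgRNA cells (group means), with an averaged log2 fold change of −0.53 (SE 0.12, adjusted p = 0.0227). That call was made in 23 of 32 alternatives and lost narrowly when any of 6 single libraries was left out (adjusted p of 0.0508 to 0.0568) and without all libraries of replicate 3 (0.241) or 4 (0.152). With the block it was lost when number 3 was left out (estimate −0.48, inside the bound of 0.5). *Fgfr2* had an estimate of −0.56 with an adjusted p of 0.0612, and was called with the block (1.95e-05). It was called in 13 of 32 alternatives, and the call with the block was lost when number 3 was left out (estimate −0.49, inside the bound of 0.5). *Klb*, which encodes β-Klotho, had group means of 111, 88.9, 108 and 93.2 CPM and an estimate of −0.26 (adjusted p = 0.33). Of the other receptor genes, *Fgfr3*, *Egfr*, *Erbb2* and the VEGFA co-receptors *Nrp1* and *Nrp2* were tested and not called, and the remaining 11 did not pass the filter on low counts. In the 16 libraries together *Kdr* had 2 counts, *Flt1* 20, *Erbb4* 0, *Gfral* 0, and *Robo1*, *Robo2*, *Robo3* and *Robo4* 18, 4, 26 and 1.

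Of 25 relatives of the 9 factors 9 were tested, 1 was called higher and 1 lower, where 2.65% of all genes were called. With the block 2 were called higher and 2 lower, where 5.7% of all genes were called. *Fgf7*, a growth factor for epithelial cells, rose by 1.49 in log2 terms (SE 0.36, adjusted p = 0.0268, 0.0505 to 0.0646 without any of 6 single libraries and 0.252, 0.0687 and 0.0918 without replicate 3, 4 and 5), and *Fgf2*, a mitogen of preadipocytes and vessels, fell by 1.06 (SE 0.17, adjusted p = 0.00176). *Pgf*, placental growth factor, had an estimate of 1.14 (adjusted p = 0.141) and was called with the block (0.00491), as was *Vegfd* in the other direction (−0.54 without the block, adjusted p 0.602 without and 0.0161 with it). *Vegfd* was called in 4 of 32 alternatives, and not with the block once number 3, 4 or 5 was left out, with estimates from −1.03 to −0.24. *Metrn*, the relative of *Metrnl*, had an estimate of −0.12.

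Of 18 other secreted factors of thermogenic fat 9 were tested, 2 were called higher and 2 lower after isoproterenol. Among all 13150 genes tested the called share was 2.65%. Fitting the replicate block gave 3 higher and 2 lower of the 9, beside a called share of 5.7%. The cytokine gene *Il6* rose by a log2 fold change of 1.92 (adjusted p = 0.00145) and *Angpt2*, which loosens vessels, by 1.16 (adjusted p = 0.026, 0.0526 to 0.0619 without any of 8 single libraries and 0.185, 0.145 and 0.0846 without replicate 3, 4 and 5). *Igf1*, insulin-like growth factor 1, fell by 1.37 (adjusted p = 0.000548) and *Adipoq*, which encodes adiponectin, by 1.06 (adjusted p = 0.00222). *Fstl1* had an estimate of 0.70 with an adjusted p of 0.117, and was called with the block (6.44e-07). Among the 8 adipocyte markers, which include *Adipoq*, 3 were called lower without the block and 5 with it, and none was called higher. All 8 estimates were below 0 (median −0.55), and the part of these marker changes in the levels of the secreted factors was not tested.

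Gene groups linked to the regulation of the factors were counted next, against the 2.65% of all genes called after isoproterenol, and no call in a list of this size is near the share over all genes. *Fgf21* and *Gdf15* are target genes of the integrated stress response, in which ATF4 drives amino acid synthesis and transport genes, and of its 15 listed genes 14 were tested and none was called after isoproterenol (median −0.10, *Atf4* 0.15). Of 14 genes of the hypoxia response, to which *Vegfa* belongs, 14 were tested and none was called (median 0.19, 12 estimates above 0). Of 10 LXR genes, the group of *Pltp*, 10 were tested and none was called without the block, while *Apoe* was called lower with it (−0.64, adjusted p = 0.0299), a call made in only 3 of 32 alternatives. Of 10 genes of the PGC-1 and β-adrenergic response 8 were tested and 5 were called higher. Besides *Ucp1* these were the nuclear receptor genes *Nr4a3* (2.90, adjusted p = 0.00714) and *Nr4a1* (2.24, 1.2e-05), the phosphodiesterase gene *Pde4d* (1.35, 1.38e-05) and the coactivator gene *Ppargc1a* (0.71, 0.0128).

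**Figure D5:**
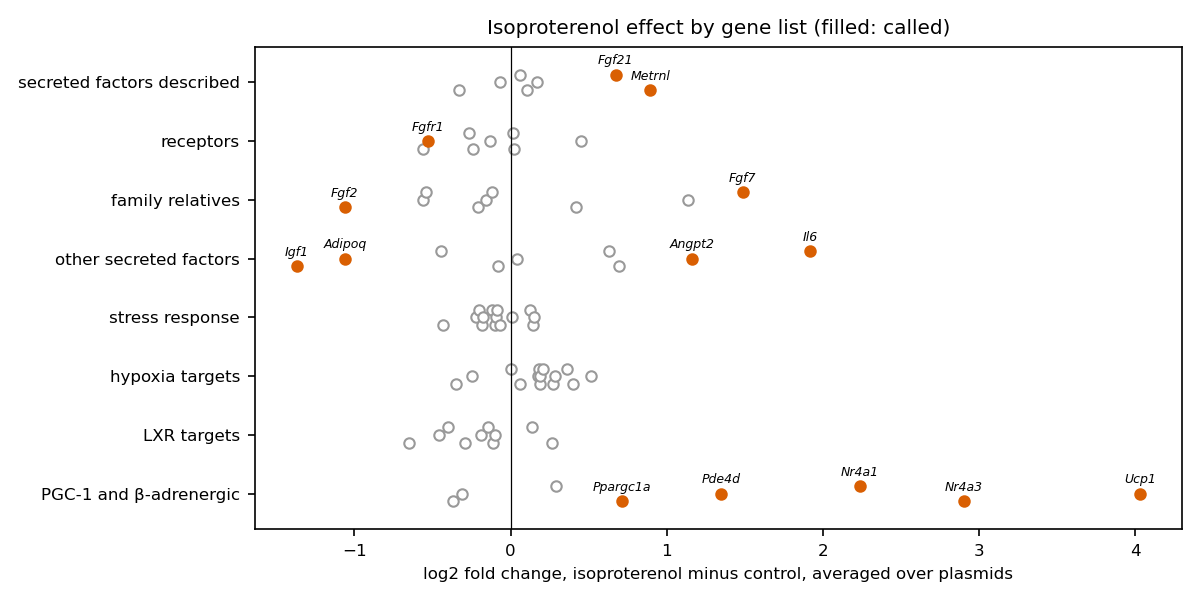
Log2 fold change of isoproterenol minus control, averaged over plasmids and without the replicate block, for each tested gene of the 9 factors and of 7 gene lists, with called genes filled and named. The called factors *Fgf21* (0.67) and *Metrnl* (0.89) lie near *Ppargc1a* (0.71) and well under *Ucp1* (4.03).

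The genes whose pattern over the 16 libraries was most like that of the called factors were found by the root mean square difference of log2 CPM after each gene was centred on its mean. For *Fgf21*, whose own root mean square about its mean was 0.398, the 3 nearest were *Gpcpd1* (0.155), *Sgk2* (0.180) and *Acsl4* (0.195), with isoproterenol log2 fold changes of 0.46, 0.89 and 0.71. For *Metrnl*, with 0.527 of its own, they were *Vamp5* (0.262), *Vamp1* (0.263) and *Ybx1* (0.275), with isoproterenol log2 fold changes of 0.73, 0.56 and 0.48. These distances are descriptions over 16 libraries that share treatment, plasmid and replicate number.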

How the data were processed

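Polyadenylated RNA of 16 wt1-SAM libraries was sequenced in paired ends. Per the labels and the study's methods, the authors used cutadapt for trimming and salmon with GENCODE transcripts of GRCm38 for quantification. The deposited values are estimated counts of each gene without normalization, and all were whole, so rounding changed nothing. Tool versions and use of strand were not given in the sources used here, and replicates were not pooled. The series' design text speaks of triplicates, but 4 replicate numbers per group were labelled and used.

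Genes were kept by filterByExpr (minimum count 10, minimum total 15) and scaled by TMM, and 4 group means were fitted to all 16 libraries with glmQLFit of edgeR 4.0.16 in R 4.3.3. Contrasts were tested two-sided with glmQLFTest and Benjamini-Hochberg adjustment over 13150 genes. The code was tested on simulated counts. Log2 CPM used a prior count of 2. Alternatives were the replicate number as a block, DESeq2 1.42.0 and its size factors, no filter, leaving out the ribosomal RNA gene, leaving out replicates or libraries, the ribosomal RNA share as covariate and, chosen after seeing the data, that covariate together with the block.

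Libraries of the same number deviated together from their group means (correlations of 0.22 to 0.61, median 0.41, 24 pairs, against −0.51 to 0.52, median −0.21, for 72 pairs of other numbers). The ranges overlapped, and the highest value between numbers, from replicates 3 and 4, lay above the same-number values of replicate 3. Since every same-number correlation was over 0.1, the numbers were taken to pair the libraries. The 9 genes, the gene lists and the rule for named genes were chosen with earlier results of these data known. Named were all 9 factors and, of the lists, most called genes and those that speak to a factor. Several called marker genes, and the other secreted factor called lower for the sgRNAs, were given as counts only. Coordinates and exon lengths are from GENCODE M21, while the study's methods name M22, alone or with RNAcentral, for the counts, so levels per kb rest on the lengths of the earlier release. Promoter windows are from RefSeq (GRCm38.p6), in which 9 of 9 factors matched.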

Additional observations from a re-analysis of the deposited data

Results flagged for a closer look

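Within each group of 4 libraries, the highest or lowest library of each of the 9 factors was compared with the rest on the scale of log2 CPM. Its gap to the nearest library over the range of the group was set against Dixon's 95% critical value for 4 samples. Of 36 groups 3 passed it, and chance alone gives about 1 in 20.

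*Fgf21* in sgRNA control cells had a gap of 0.873, from replicate 4 with 93.5 CPM while the other 3 libraries lay between 62.9 and 66.1 CPM. *Pltp* in stimulated sgRNA cells had a gap of 0.890, from replicate 5 with 17.5 CPM while the others lay between 15.6 and 15.8 CPM. *Slit2* in stimulated sgRNA cells had a gap of 1, from a single count in replicate 5 against 0 in the other 3 libraries.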

How the results depend on the processing

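The isoproterenol calls of *Fgf21* (0.62 to 0.75) and *Metrnl* (0.80 to 1.00) averaged over plasmids were made in 32 of 32 alternatives, with adjusted p up to 0.0453 and 0.0425. The other 5 tested factors were called in none of them for either averaged effect. The call of *Fgfr1* was lost without the stimulated empty vector library of replicate 3 or 6, the sgRNA control library of 3 or 5, the empty vector control library of 5, the stimulated sgRNA library of 4, or replicate 3 or 4 as a whole. It was also lost with the block once number 3 was left out. That of *Fgf7* was lost without a control library of replicate 3 or 5 or a stimulated library of 6, of either plasmid, or without replicate 3, 4 or 5. That of *Angpt2* was lost without a control library of replicate 4 or 5 or a stimulated library of 6 of either plasmid, either empty vector library of replicate 3, or replicate 3, 4 or 5 as a whole. The calls of *Ucp1*, *Fgf2*, *Il6*, *Igf1*, *Adipoq*, *Nr4a1* and *Pde4d* were made in 32 of 32, that of *Nr4a3* was lost without replicate 3, and that of *Ppargc1a* without replicate 3 or 4.

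The replicate block changed many counts. For the averaged isoproterenol effect 349 genes were called, against 749 with the replicate block, 722 with the block in DESeq2 and 730 with the block and the ribosomal RNA share as covariate. In empty vector cells the count of 109 became 588 with the replicate block, 223 with DESeq2, 583 with both, 174 with the covariate and 567 with block and covariate. In sgRNA cells 92 became 513, 177, 504 and, with block and covariate, 538. Of the factors, 1 called in each plasmid became 2 with the replicate block, DESeq2, both, the covariate, and block and covariate. In sgRNA cells it became 0 with DESeq2's size factors in edgeR and with the ribosomal RNA gene left out. For the averaged sgRNA effect 0 became 35 with the replicate block, 10 with DESeq2, 57 with both, 10 without the filter, 4 with the covariate and 14 with block and covariate. In control cells the sgRNA effect went from 0 to 4, 3, 23, 1, 1 and 5, and in stimulated cells from 0 to 16, 4, 27, 4, 2 and 4, in the same order. The interaction had 3 calls with the block in DESeq2 and 1 with block and covariate. The replicate block changed no other call of a factor. The cause of these differences was not tested.

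Leaving out a replicate number or library gave 120 to 752 calls for the averaged isoproterenol effect, 35 to 544 in empty vector and 29 to 427 in sgRNA cells, with 0 to 2 factors called in each plasmid. It gave 0 to 26 calls for the averaged sgRNA effect, 0 to 5 in control and 0 to 12 in stimulated cells, and 0 to 1 for the interaction. Signs turned among estimates that were not called. Leaving out replicates moved the isoproterenol estimate of *Gdf15* between −0.0863 and 0.16 and of *Pltp* between −0.18 and 0.16. The sgRNA estimates moved between −0.0450 and 0.11 for *Vegfb*, −0.18 and 0.21 for *Gdf15*, −0.14 and 0.0133 for *Pltp*, and the *Fgf21* interaction between −0.0478 and 0.23. For *Gdf15* the sgRNA estimate was −0.06 with all libraries and 0.20 without replicate 5. With the covariate the sgRNA estimates became −0.0333 for *Fgf21*, −0.0741 for *Metrnl* and 0.12 for *Gdf15*. With block and covariate they became −1.9e-05 for *Metrnl* and 0.25 for *Gdf15*, whose isoproterenol estimate became −0.0376, and the block in DESeq2 gave 0.0040 for the sgRNA estimate of *Gdf15*.

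With CPM taken over the total of counts other than the ribosomal RNA gene, which also leaves out TMM scaling, mean levels over the 16 libraries became 127 for *Fgf21*, 179 for *Vegfa*, 51.6 for *Vegfb*, 83.8 for *Nrg4*, 8.95 for *Metrnl*, 72.0 for *Gdf15* and 24.0 for *Pltp*. Depth limits *Fgf9* and *Slit2*, for which no change could be detected, and *Metrnl*, whose control libraries of empty vector cells held 24 to 80 counts.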
